A study of Mus musculus with 8 samples.

Results

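The cathepsins of hepatic macrophages and their secreted inhibitor cystatin C were examined as a group of 10 genes: *Ctsa*, *Ctsb*, *Ctsc*, *Ctsd*, *Ctse*, *Ctsh*, *Ctsl*, *Ctss*, *Ctsz* and *Cst3*. They were chosen by gene symbol from a table of 55401 genes, and all 10 were among the 15202 genes that passed a filter on low values and were tested. *Ctse* passed the filter only through the libraries labelled steatotic. The study asked how hepatic macrophages respond at the RNA level to cholesterol crystals (CC), a load that stresses the lysosome. Macrophages were isolated with anti-F4/80 antibodies and magnetic columns from wild-type mice on a standard diet (label normal) or from MC4R-KO mice on a Western diet given for 6 to 10 weeks (label steatotic), all on a C57BL/6J background. After plating on collagen they received vehicle (Veh) or CC at 500 μg/ml for 24 h, with 2 poly(A) RNA-seq libraries in each of the 4 groups. Genotype and diet changed together, so they cannot be told apart. The labels do not say whether the 2 libraries of a group came from separate mice or from pools, and p-values therefore measure only the spread between these libraries.

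Cathepsins are proteases of the endosome and lysosome that are made as inactive proenzymes, carried to the lysosome largely by mannose 6-phosphate receptors and activated there by removal of a propeptide. Most are cysteine peptidases, *Ctsd* and *Ctse* encode aspartic peptidases and *Ctsa* a serine carboxypeptidase. Macrophages use them to degrade engulfed material and to prepare antigens, and cystatin C binds the cysteine cathepsins that are released from cells and blocks them.

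Levels are given as CPM, the counts of a gene scaled to a common library total. The totals ranged from 58668655 to 74529462 counts. A value of 3 sequenced fragments, the upper limit that a count of 0 allows, corresponded to 0.161 to 0.205 CPM, and these floors cover counting error only. *Mc4r*, the gene disrupted in MC4R-KO mice, had 0 counts in the 4 libraries labelled normal and 22 to 72 counts in the 4 labelled steatotic (p = 0.0286 by an exact permutation test, two-sided, the lowest value possible with 4 libraries against 4). It went against the labels, and the counts do not show whether the disrupted allele is still transcribed, so every direction between livers refers to the libraries labelled normal or steatotic. The summed markers of recruited monocytes and of T and NK cells were higher in the libraries labelled steatotic, without overlap. The macrophage markers *Adgre1*, *Csf1r*, *Cd68*, *Lyz2* and *Mertk* were present in all libraries, with a summed level of 14400 to 14900 CPM (normal Veh), 11500 to 11700 (normal CC), 9180 to 9400 (steatotic Veh) and 8130 to 8910 CPM (steatotic CC). These sums are carried by *Lyz2* and *Cd68*, which were lower with the label steatotic under Veh (log2 differences -1.16 and -0.74, adjusted p = 7.29e-05 and 7.19e-06), whereas *Adgre1* and *Mertk* were higher (0.74 and 0.22, adjusted p = 5.93e-06 and 0.00873, that of *Mertk* lost without normal Veh replicate 1, adjusted p = 0.0515) and *Csf1r* was not called. The 7 Kupffer cell markers summed to 3110 to 3170 CPM (normal Veh), 2450 to 2650 (normal CC), 4510 to 4550 (steatotic Veh) and 2990 to 3520 CPM (steatotic CC). *Cd5l* was the largest part, with means of 1933 (normal Veh) and 3142 CPM (steatotic Veh). Under Veh, *Cd5l*, *Vsig4*, *Folr2* and *Timd4* were higher with the label steatotic (log2 differences 0.75, 0.93, 0.81 and 0.83). *Clec4f* and *Marco* were lower (-0.50 and -1.93), and *Clec1b* was not called. In RNA from whole cultures, fewer cells of a type and less RNA per cell cannot be told apart.

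Markers of other cells also moved with the labels or with CC. The 8 T and NK cell markers summed to at most 0.997 CPM in the libraries labelled normal and to 14.3 to 18.8 CPM in those labelled steatotic. The 4 markers of recruited monocytes summed to 7.41 to 11.1 CPM with the label normal and to 71.4 to 113 CPM with the label steatotic. The 6 markers of stellate cells summed to 2.58 to 2.69 CPM with normal Veh and 5.91 to 7.35 with normal CC. Under the label steatotic they summed to 17.9 to 21.1 CPM with Veh and to 108 to 135 CPM with CC, nearly all of it *Dcn* (17.4 to 20.8 and 108 to 135 CPM), while *Lrat*, *Col1a1*, *Col3a1*, *Reln* and *Des* were each at no more than 0.272 CPM in those libraries. *Dcn* was higher with CC by 1.63 on the log2 scale under the label normal (adjusted p = 0.00116) and by 2.69 under the label steatotic (adjusted p = 3.63e-05), and higher with the label steatotic by 3.22 under Veh (adjusted p = 1.66e-05). Those of hepatocytes summed to 49.8 to 59.2 CPM with the label normal and to 1.83 to 2.53 CPM with the label steatotic. Sinusoidal endothelial markers summed to 71.3 to 75.5 CPM with normal Veh, 79 to 81.1 with normal CC, 160 to 161 with steatotic Veh and 130 CPM in each steatotic CC library. Under Veh, *Pecam1*, *Kdr* and *Lyve1* were higher with the label steatotic (log2 differences 1.91, 1.58 and 0.99). *Stab2* was lower (-0.33), and *Oit3* was not called. The lower sum with CC under the label steatotic was that of *Pecam1*, which went from 96.1 and 94.3 CPM to 35.5 and 40.7 CPM (log2 change -1.30, adjusted p = 3.90e-05), while 3 of the 5 tested (*Kdr*, *Oit3* and *Stab2*) were higher, where 12% of all tested genes were called higher and 10.9% lower. The 7 dendritic cell markers summed to at most 10.7 CPM and the 5 B cell markers to at most 7.1 CPM in any library. The 7 neutrophil markers summed to 9.11 to 9.94 CPM with normal Veh, 14.4 to 15 with normal CC, 4.73 to 5.5 with steatotic Veh and 18.5 to 19.5 CPM with steatotic CC, nearly all of it *S100a8*, with *Ly6g* at 0 in all libraries. *S100a8* was higher with CC by 0.66 on the log2 scale under the label normal (adjusted p = 0.0145, lost without any 1 of 3 libraries, 0.0599 to 0.0882) and by 1.97 under the label steatotic (adjusted p = 4.02e-05). The part of these cells in the cathepsin levels was not tested.

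The 10 genes made up a large part of the RNA of these cells. Together they took 4.15% and 4.06% of all counts in the normal Veh libraries, 3.6% and 3.59% with normal CC, 4.02% and 4.05% with steatotic Veh, and 3.46% and 3.54% with steatotic CC. The sum was lower with CC than with Veh under both labels, with no overlap, and no test was made of a sum over chosen genes. *Ctsb*, an endopeptidase that is among the main lysosomal proteases, ranked 1 of all genes by mean CPM, *Ctsd* ranked 6 and *Ctss* 8. Those 3 genes made up 79.2% to 79.5% of the sum with the label normal and 73.7% to 74.2% with the label steatotic. The other members ranked between 30 (*Ctsz*) and 224 (*Ctsh*), except *Ctse* at rank 7938.

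**Figure D1:**
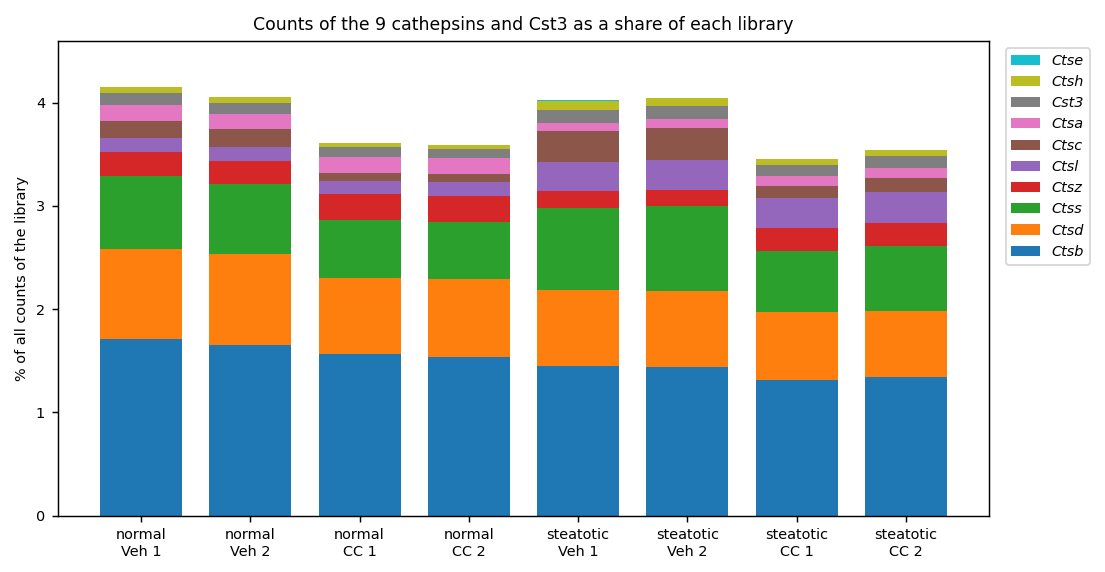
Counts of the 10 genes as a percentage of all counts, stacked by gene, for each of the 8 libraries. The bars end between 4.02% and 4.15% with Veh and between 3.46% and 3.6% with CC, and with Veh the *Ctsl* segment is 0.128% to 0.135% under the label normal and 0.282% to 0.286% under the label steatotic.

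CPM grows with transcript length, so the ranks, sums and shares above follow length as well as abundance. For levels of different genes, CPM was divided by the length of the merged exons in kilobases. On this scale the mean level over the 8 libraries was highest for *Ctss* (4925 CPM per kb), followed by *Ctsd* (3198), *Ctsb* (2480), *Ctsz* (1481) and *Cst3* (875 CPM per kb). *Ctse* was last with 4.23 CPM per kb. These 6 ranks were the same with the length of the longest or of the principal annotated transcript. Those lengths differ only for *Ctsc* and *Ctsh*, and that of *Ctsl* was 6168 bases in both. Shorter transcripts were not tried, so the ranks hold for these lengths only. *Ctsl* (327 CPM per kb), *Ctsc* (291), *Ctsa* (256) and *Ctsh* (131) lay between, and their order depended on which length was used.

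With CC, 6 of the 10 members changed under the label normal and 9 under the label steatotic. With the label normal, 1 member was called higher (*Ctsz*) and 5 lower (*Ctsc*, *Ctsh*, *Ctss*, *Ctsd* and *Cst3*) at an adjusted p-value below 0.05 in edgeR's quasi-likelihood test, while 6.27% of all tested genes were called higher and 5.54% lower. With the label steatotic, 2 members were called higher (*Ctsz* and *Ctsa*) and 7 lower (*Ctsc*, *Ctse*, *Ctsh*, *Ctss*, *Cst3*, *Ctsd* and *Ctsb*), against 12% and 10.9% of all tested genes. *Ctsl* was not called with CC under either label. Under the label normal 0 members were higher without normal Veh replicate 2 or without either normal CC library, and 4 to 5 lower when any 1 library was left out. Under the label steatotic 1 was higher and 4 lower without steatotic CC replicate 1, 1 higher without steatotic Veh replicate 1, and 5 lower without steatotic Veh replicate 2 or steatotic CC replicate 2. Without *Ctse*, which was at or near the floor with the label normal, the median log2 fold change of the other 9 members was -0.20 and -0.17 for the 2 labels, beside -0.00059 and 0 over all tested genes. Calls are more frequent at high levels: of the 537 genes with a mean of at least 300 CPM, 24.4% were called higher and 15.3% lower with the label normal, and 31.7% and 30.5% with the label steatotic.

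Leaving aside *Ctse*, which passed the filter through the libraries labelled steatotic and so had to differ, the 9 other members differed between the labels, both with Veh and with CC. *Ctsl*, *Ctsc*, *Ctsh*, *Ctss* and *Cst3* (5) were higher in the libraries labelled steatotic, and *Ctsa*, *Ctsz*, *Ctsb* and *Ctsd* (4) were lower. Of all tested genes, 16.4% were called higher and 14.3% lower with Veh, and 15.9% and 12.9% with CC. Among the 537 genes of high level, 41.0% were called higher and 27.0% lower with Veh, and 39.7% and 24.6% with CC. The median log2 fold change of these 9 members was 0.26 with Veh and 0.15 with CC. Of the 7 Kupffer cell markers, 4 were higher and 2 lower with the label steatotic under Veh, and 5 and 2 under CC, and the part of these changes in the cathepsin levels was not tested. These comparisons share libraries with the CC comparisons and are not independent of them.

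A test of the difference between the CC responses under the 2 labels called 2 of the 10 members, *Ctsz* higher and *Ctse* lower, while 1.95% of all tested genes were called higher and 1.27% lower. The call of *Ctse* rests on values at the floor in the libraries labelled normal and was absent with counts divided by 4 (adjusted p = 0.107), which leaves *Ctsz*. Among the 537 genes of high level, 9.87% and 6.52% were called. For the other 8 members, the CC response was not shown to differ between the labels.

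**Figure D2:**
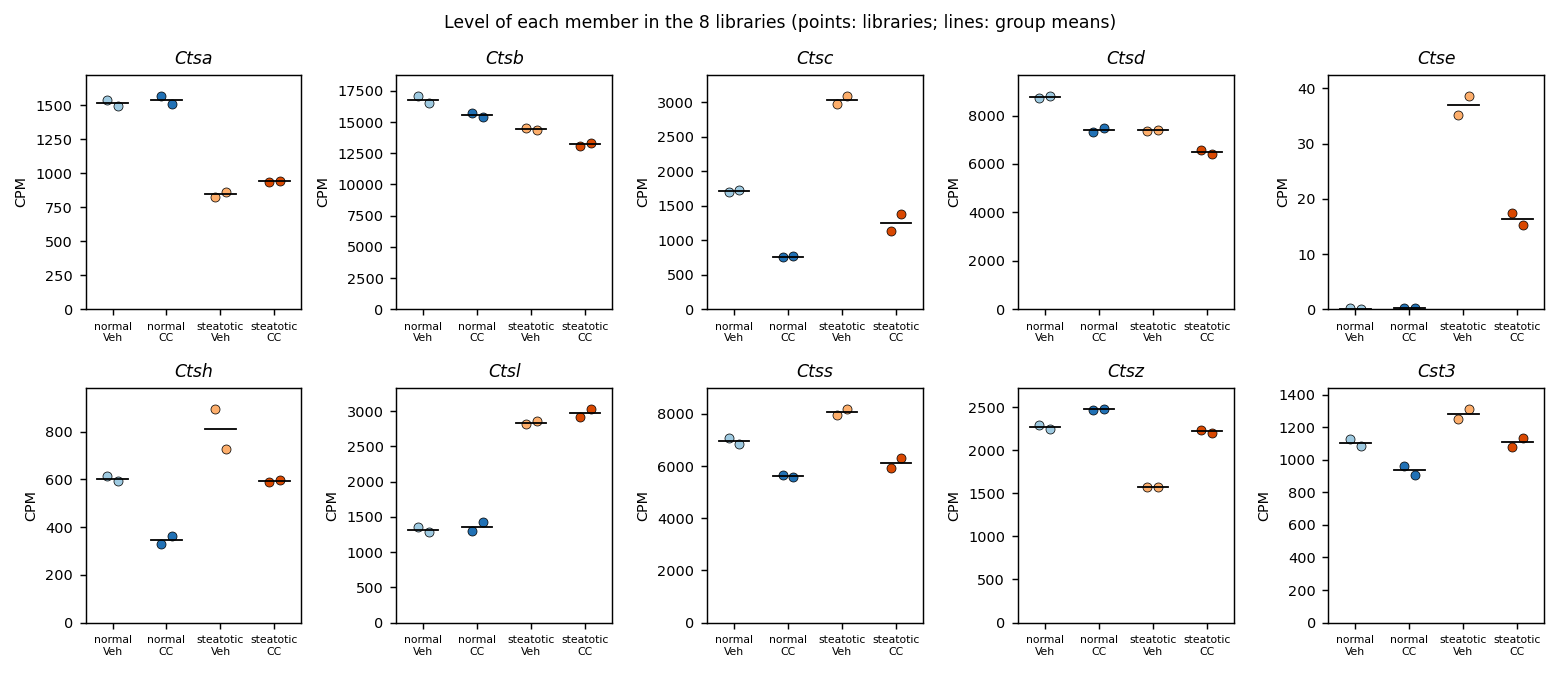
CPM (linear axis from 0) of each of the 10 genes in every library, with points for libraries and lines for the means of the 2 libraries of a group. *Ctsl* and *Ctse* separate by label, *Ctsc* and *Ctss* fall with CC under both labels, and *Ctsz* is lowest in the steatotic Veh libraries.

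**Figure D3:**
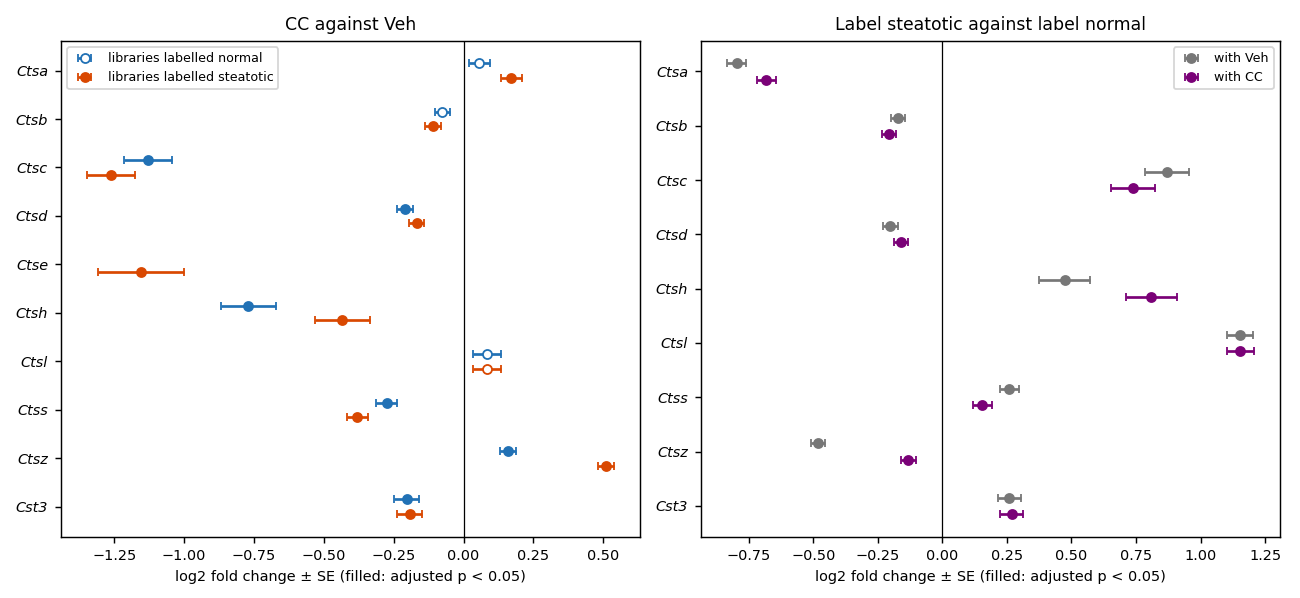
Log2 fold change with its standard error for CC against Veh under each label (left) and for the label steatotic against normal with Veh and with CC (right), with filled points for an adjusted p-value below 0.05. *Ctse* is left out where the libraries labelled normal enter, since it was near the floor there. The lowest points on the left are *Ctsc* at -1.26 and *Ctse* at -1.16 (label steatotic), then *Ctsc* at -1.13 (label normal). *Ctsl* has the highest points on the right, at 1.15 with Veh and with CC.

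*Ctsa* (ENSMUSG00000017760.16, chr2:164832873-164841032 of GRCm38, plus strand) encodes a serine carboxypeptidase that also shields β-galactosidase and neuraminidase 1 in a lysosomal complex. Its promoter is shown because it holds the palindrome TCACGTGA, a form of the motif bound by TFEB, TFE3 and MITF, regulators of lysosomal genes. The 8-mer, which contains the E-box core CACGTG, was found in 0.974% of the 32851 mouse promoters of RefSeq (GRCm38.p6; 250 bases before to 50 after each start, both strands). For a member with several promoters, the one with the most E-box cores was printed. For *Ctsa* this was that of the downstream start, and all its matches lay there. The share of all promoters involves no such choice. The stretch from 250 bases before to 20 after the downstream start of *Ctsa*, chr2:164833523-164833792 on the plus strand, held it 2 times, beginning at positions -13 and 5 from the start, in capitals:
Ctsa: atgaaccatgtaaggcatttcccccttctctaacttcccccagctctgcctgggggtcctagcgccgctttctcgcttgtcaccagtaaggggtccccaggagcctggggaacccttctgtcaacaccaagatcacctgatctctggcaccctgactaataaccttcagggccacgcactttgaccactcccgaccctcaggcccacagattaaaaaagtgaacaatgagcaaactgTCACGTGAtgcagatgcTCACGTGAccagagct

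A match of letters is a description and does not show binding. *Ctsa* was at 1535 and 1495 CPM with normal Veh, 1568 and 1505 with normal CC, 825 and 865 with steatotic Veh, and 938 and 942 CPM with steatotic CC. The libraries labelled steatotic lay below those labelled normal without overlap, whereas CC and Veh overlapped with the label normal. The log2 difference between the labels was -0.80 ± 0.04 (SE, adjusted p = 4.98e-06) with Veh and -0.68 ± 0.04 (adjusted p = 1.14e-05) with CC. With the label steatotic, *Ctsa* was higher by 0.17 ± 0.04 on the log2 scale with CC (adjusted p = 0.0132), a call that was lost without steatotic Veh replicate 1 (0.0948) or steatotic CC replicate 1 (0.0501). With the label normal its log2 fold change was 0.06 ± 0.04 (adjusted p = 0.399). *Ctsa* shares 1515 bases of its locus with *Pltp*, the gene of the phospholipid transfer protein on the opposite strand. *Pltp* was at 444 to 452 CPM with normal Veh, 296 to 310 with normal CC, 1174 to 1229 with steatotic Veh and 632 to 697 CPM with steatotic CC. The kit was directional, but no source used here says whether strand was used in the counting, so reads of the shared bases may be assigned to either gene.

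*Ctsd* (ENSMUSG00000007891.16, chr7:142375911-142388038, minus strand) encodes the main aspartic protease of the lysosome. Its promoter is the other one among the members that held TCACGTGA, beginning at position -99, and it held the E-box core alone at -245. The core stood in 7.15% of all promoters. The stretch chr7:142387808-142388077 on the minus strand reads, with both matches in capitals:
Ctsd: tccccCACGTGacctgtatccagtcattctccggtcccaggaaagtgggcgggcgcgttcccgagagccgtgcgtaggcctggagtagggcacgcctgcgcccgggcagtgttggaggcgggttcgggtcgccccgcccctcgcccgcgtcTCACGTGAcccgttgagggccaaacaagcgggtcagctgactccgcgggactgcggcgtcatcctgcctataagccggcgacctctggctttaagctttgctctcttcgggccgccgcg

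*Ctsd* was at 8734 and 8811 CPM with normal Veh, 7313 and 7487 with normal CC, 7380 and 7404 with steatotic Veh, and 6591 and 6419 CPM with steatotic CC. Normal Veh was highest, steatotic CC lowest, and the 2 groups between overlapped and changed places on TMM-scaled library sizes. *Ctsd* fell by 0.21 ± 0.03 on the log2 scale with CC under the label normal (adjusted p = 0.0028) and by 0.17 ± 0.03 under the label steatotic (adjusted p = 0.00386). Between the labels it was lower by 13.0% with Veh (adjusted p = 0.00118) and by 10.5% with CC (adjusted p = 0.00414). *Ctsa* and *Ctsd* both held the 8-mer. Their log2 differences with CC had opposite signs under both labels, although that of *Ctsa* was not called with the label normal. The part of the motif in these differences was not tested. The annotated gene *Gm49369* covers 6757 bases of the locus on the same strand and was listed at no more than 0.966 CPM in any library.

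*Ctse* (ENSMUSG00000004552.16, chr1:131638306-131675505, plus strand) encodes the other aspartic protease of the set, found mostly in endosomes. It had 10 and 4 counts with normal Veh and 14 and 12 with normal CC, against 2405 and 2843 with steatotic Veh and 1143 in each of the steatotic CC libraries. About 4 of the deposited counts stood for 1 fragment, as inferred from an excess of multiples of 4 among small values, so the libraries labelled normal held few fragments. Both normal Veh values, 0.142 and 0.0604 CPM, were below the floors of their libraries, and *Ctse* entered the tests through the libraries labelled steatotic alone. As a description with no test, the inferred fragments pooled over the 2 libraries of each group, 4 with normal Veh and 1312 with steatotic Veh, gave a ratio of CPM of 316 (exact 95% counting interval 123 to 1160). With CC, 7 and 572 inferred fragments gave a ratio of 70.6 (34.1 to 176). The intervals cover counting error only.

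Per library, *Ctse* was at 35.2 and 38.6 CPM with steatotic Veh and at 17.4 and 15.3 CPM with steatotic CC. CC and Veh were apart under this label, with a log2 fold change of -1.16 ± 0.15 (adjusted p = 0.00134). With the label normal, the values of 0.0604 to 0.224 CPM were at or near the floor of 3 fragments, so no fold change is given. The test of the difference between the CC responses gave -2.25 ± 0.38 on the log2 scale (adjusted p = 0.0221), which rests on the 4 to 14 counts of the libraries labelled normal. With counts divided by 4 the difference was -2.52 and was not called (adjusted p = 0.107). Without normal CC replicate 1, normal CC replicate 2 or steatotic Veh replicate 2 it was -2.18, -2.31 and -2.18, again not called (adjusted p = 0.0976, 0.0756 and 0.0639).

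The 6 cysteine cathepsins followed several patterns. *Ctsb*, *Ctsc*, *Ctsh*, *Ctsl*, *Ctss* and *Ctsz* together were at 30140 and 29190 CPM with normal Veh, 26200 and 25980 with normal CC, 30720 and 30840 with steatotic Veh, and 25930 and 26870 CPM with steatotic CC. Their sum was lower with CC under both labels, and the 2 CC groups overlapped. The gene-by-gene changes were less alike than the sum: with CC *Ctsc*, *Ctsh* and *Ctss* were lower under both labels, *Ctsz* was higher under both, *Ctsb* was lower under the label steatotic with a response not shown to differ from that under the label normal (difference -0.03 ± 0.04, adjusted p = 0.780), and *Ctsl* was not called under either.

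*Ctsc* (ENSMUSG00000030560.17, chr7:88278085-88310888, plus strand) encodes dipeptidyl peptidase I, which activates serine proteases of immune cells by trimming their N terminus. Among the members with more than floor values in every library it had the widest range of group means, 2.0 on the log2 CPM scale. Its promoter, chr7:88277835-88278104 on the plus strand, held ACTTCCTC, the reverse complement of the PU.1 motif GAGGAAGT, beginning at position -151. PU.1 is a factor that guides macrophage development, and 3.2% of all promoters held the motif on either strand. The match is in capitals:
Ctsc: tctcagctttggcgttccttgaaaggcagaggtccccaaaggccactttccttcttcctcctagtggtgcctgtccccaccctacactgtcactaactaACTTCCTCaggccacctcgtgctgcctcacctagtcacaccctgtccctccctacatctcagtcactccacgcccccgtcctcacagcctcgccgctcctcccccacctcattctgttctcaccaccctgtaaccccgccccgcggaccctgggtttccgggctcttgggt

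*Ctsc* was at 1702 and 1726 CPM with normal Veh, 754 and 774 with normal CC, 2979 and 3095 with steatotic Veh, and 1129 and 1375 CPM with steatotic CC. The 4 groups did not overlap, and their order from the highest was steatotic Veh, normal Veh, steatotic CC and normal CC. With CC *Ctsc* fell by 54.3% with the label normal (log2 fold change -1.13 ± 0.09, adjusted p = 0.000543) and by 58.3% with the label steatotic (-1.26 ± 0.09, adjusted p = 0.000127). Between the labels it was 1.83-fold higher with Veh (adjusted p = 0.000474) and 1.67-fold higher with CC (adjusted p = 0.00115). The 2 CC responses differed by -0.13 ± 0.12 on the log2 scale (adjusted p = 0.710). This difference was 0.000882 without steatotic CC replicate 1 and -0.28 (adjusted p = 0.0444) without steatotic CC replicate 2. *Gm26522*, an annotated lincRNA, shares 4743 bases of the locus on the opposite strand.

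*Ctss* (ENSMUSG00000038642.10, chr3:95526786-95556403, plus strand) encodes a cysteine protease that cleaves the invariant chain of MHC class II. Its promoter held ACTTCCTC too, at position -2. *Ctss* was at 7074 and 6836 CPM with normal Veh, 5646 and 5564 with normal CC, 7949 and 8181 with steatotic Veh, and 5937 and 6317 CPM with steatotic CC. The 4 groups did not overlap and stood in the same order as for *Ctsc*, over a narrower range of 0.534 on the log2 CPM scale. With CC *Ctss* fell by 17.4% with the label normal (adjusted p = 0.00286) and by 23.1% with the label steatotic (adjusted p = 0.000263). It was 1.20-fold higher with the label steatotic under Veh (adjusted p = 0.00137) and 1.11-fold higher under CC (adjusted p = 0.0167). The call under CC was lost without normal CC replicate 1 (adjusted p = 0.0622), normal CC replicate 2 (0.0918) or steatotic CC replicate 2 (0.0738). A processed pseudogene, *Hmgb1-ps5*, overlaps 557 bases of the locus on the same strand and was at 6.34 to 9.95 CPM.

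*Ctsh* (ENSMUSG00000032359.14, chr9:90054152-90076089, plus strand) encodes a cysteine protease that acts mainly as an aminopeptidase. It was at 614 and 592 CPM with normal Veh, 329 and 361 with normal CC, 894 and 729 with steatotic Veh, and 589 and 598 CPM with steatotic CC. The order of the groups was again that of *Ctsc*, although normal Veh and steatotic CC overlapped and the 2 steatotic Veh libraries were far apart. On TMM-scaled library sizes steatotic CC (601 and 609 CPM) lay above normal Veh (599 and 578 CPM). With CC it was lower by 41.4% with the label normal (adjusted p = 0.00464) and by 26.0% with the label steatotic (adjusted p = 0.0228). The call with the label steatotic was lost without steatotic CC replicate 1 (adjusted p = 0.126) or 2 (0.105), with all genes with any count kept (0.0655) and in a fit of its own 4 libraries (0.0771). Between the labels *Ctsh* was 1.39-fold higher with Veh (adjusted p = 0.0128) and 1.75-fold higher with CC (adjusted p = 0.00158). The call with Veh was lost without normal Veh replicate 1 (adjusted p = 0.0599) or 2 (0.0762) and in a fit of its own 4 libraries (0.0653). The difference between its CC responses, 0.34 ± 0.14 on the log2 scale, was not called (adjusted p = 0.349), but was 0.48 without steatotic Veh replicate 1 (adjusted p = 0.0400).

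*Ctsb* (ENSMUSG00000021939.8, chr14:63122462-63145923, plus strand) was at 17100 and 16500 CPM with normal Veh, 15710 and 15380 with normal CC, 14510 and 14400 with steatotic Veh, and 13120 and 13360 CPM with steatotic CC. The 4 groups were apart and fell in that order, within 0.281 on the log2 CPM scale. The label steatotic was lower by 11.2% with Veh (adjusted p = 0.00276) and by 13.3% with CC (adjusted p = 0.00128). With CC *Ctsb* was lower by 7.35% under the label steatotic (adjusted p = 0.0260), a call that was lost in DESeq2 (adjusted p = 0.126), in a fit of its own 4 libraries (0.0594) and without any 1 of those 4 libraries (0.0518 to 0.104). With the label normal its log2 fold change was -0.08 ± 0.03 (adjusted p = 0.138), and -0.11 (adjusted p = 0.0406) when counts were scaled by library size only.

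*Ctsl* (ENSMUSG00000021477.9, chr13:64359337-64370890, minus strand) encodes a broadly acting endopeptidase. It was at 1353 and 1281 CPM with normal Veh, 1295 and 1426 with normal CC, 2815 and 2859 with steatotic Veh, and 2919 and 3029 CPM with steatotic CC. The libraries fell into a low set labelled normal, in which CC and Veh overlapped, and a high set labelled steatotic. The log2 difference between the labels was 1.15 ± 0.05 both with Veh (adjusted p = 4.2e-06) and with CC (adjusted p = 4.23e-06), a 2.22-fold and a 2.23-fold higher level. With CC the log2 fold change was 0.08 ± 0.05 under each label (adjusted p = 0.365 and 0.296), and the 2 responses differed by 0.0016 ± 0.0716. Set against *Ctsb*, the counts of *Ctsl*, not corrected for length, were 0.0776 to 0.0927 times as many in the libraries labelled normal and 0.194 to 0.227 in those labelled steatotic. Its promoter held the E-box core at position -236. *Gm47123* on the opposite strand shares 1971 bases with the locus and was at 0 CPM in all libraries.

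*Ctsz* (ENSMUSG00000016256.10, chr2:174427493-174439039, minus strand) encodes cathepsin Z, also called cathepsin X, a carboxypeptidase that removes single residues. It was at 2295 and 2248 CPM with normal Veh, 2471 and 2475 with normal CC, 1577 and 1576 with steatotic Veh, and 2238 and 2197 CPM with steatotic CC. The groups did not overlap in CPM, and the steatotic Veh libraries stood well below the other 6. On TMM-scaled library sizes normal Veh (2238 and 2193 CPM) and steatotic CC (2282 and 2234 CPM) overlapped, with the higher mean for the latter. With CC *Ctsz* was 1.12-fold higher under the label normal (log2 fold change 0.16 ± 0.03, adjusted p = 0.0105) and 1.42-fold higher under the label steatotic (0.51 ± 0.03, adjusted p = 1.76e-05). These responses differed by 0.35 ± 0.04 on the log2 scale (adjusted p = 0.00552). The difference between the labels was -0.48 ± 0.03 with Veh (adjusted p = 1.62e-05) and -0.13 ± 0.03 with CC (adjusted p = 0.0108).

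The call for CC with the label normal was lost without normal Veh replicate 2 (adjusted p = 0.0576) or normal CC replicate 1 (0.0647) or 2 (0.0671), and that between the labels with CC without normal CC replicate 1 (0.0577) or 2 (0.0614). *Ctsz* is the member with the clearest test of a difference between the CC responses, so its promoter, chr2:174439020-174439289 on the minus strand, is shown as well. It is printed in lower case throughout, since none of the 3 motifs searched was found in its window:
Ctsz: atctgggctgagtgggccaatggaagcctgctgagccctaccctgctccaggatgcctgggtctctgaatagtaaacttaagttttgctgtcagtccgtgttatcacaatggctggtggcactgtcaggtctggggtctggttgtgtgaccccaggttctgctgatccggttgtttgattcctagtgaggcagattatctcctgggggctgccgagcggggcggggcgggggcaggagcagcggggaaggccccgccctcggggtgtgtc

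*Cst3* (ENSMUSG00000027447.6, chr2:148871722-148875692, minus strand), the gene of cystatin C, moved with the larger group of cathepsins that fell with CC. It was at 1126 and 1087 CPM with normal Veh, 964 and 909 with normal CC, 1252 and 1312 with steatotic Veh, and 1081 and 1136 CPM with steatotic CC. Steatotic Veh was highest and normal CC lowest, and the 2 groups between overlapped. With CC *Cst3* fell by 13.1% with the label normal (adjusted p = 0.0249) and by 12.5% with the label steatotic (adjusted p = 0.0177). It was 1.20-fold higher with the label steatotic both with Veh (adjusted p = 0.00362) and with CC (adjusted p = 0.00338). The counts of *Cst3* were 3.5% to 3.73% of the summed counts of the 6 cysteine cathepsins in the libraries labelled normal and 4.08% to 4.25% in those labelled steatotic, a share not corrected for length, and CC and Veh overlapped under the latter.

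The CC calls for *Cst3* were lost without normal Veh replicate 1 (adjusted p = 0.126), normal Veh replicate 2 (0.0590) or normal CC replicate 2 (0.142), and without steatotic Veh replicate 2 (0.106) or steatotic CC replicate 1 (0.0932). Leaving out a library leaves its group with 1, which was assumed to vary like the other groups. The markers of macrophages moved as well. Of the 5, 4 were lower and 0 higher with CC under the label normal, and 3 were lower and 1 higher under the label steatotic, where 5.54% (lower, normal), 6.27% (higher, normal), 10.9% (lower, steatotic) and 12% (higher, steatotic) of all tested genes were called. *Adgre1*, which encodes F4/80, went from 1062 and 1087 CPM to 814 and 821 with the label normal, and from 1739 and 1730 to 1055 and 1115 CPM with the label steatotic. Of the 7 Kupffer cell markers, 3 were lower with CC under the label normal, and 5 were lower and 1 higher under the label steatotic, against the same shares. The part of these changes in the lower cathepsin levels was not tested.

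Genes around the cathepsins were read from lists made by family or function. Their counts stand against the shares of all tested genes called with CC, 6.27% higher and 5.54% lower with the label normal and 12% and 10.9% with the label steatotic. Of 14 further cathepsin genes, 4 were tested (*Ctsf*, *Ctsk*, *Ctso* and *Ctsw*). *Ctsk*, the collagen-degrading cathepsin best known from osteoclasts, lies 17423 bases before *Ctss* on the same strand (chr3:95499256-95509362). It was at 8.98 and 8.23 CPM with normal Veh, 15.56 and 14.97 with normal CC, 21.3 and 19.6 with steatotic Veh, and 56.2 and 53.1 CPM with steatotic CC. In contrast to *Ctss*, it rose with CC by 0.86 ± 0.08 on the log2 scale under the label normal (adjusted p = 0.000648) and by 1.44 ± 0.08 under the label steatotic (adjusted p = 2.08e-05). The responses differed by 0.57 ± 0.12 (adjusted p = 0.0457), a call that was lost without any 1 of the 8 libraries (adjusted p = 0.0663 to 0.138). *Ctsf* fell with CC under the label steatotic by 1.58 ± 0.19 (adjusted p = 0.000753), from 6.87 and 5.53 to 1.97 and 2.12 CPM, and was at -0.40 ± 0.18 under the label normal (adjusted p = 0.220). The responses were not shown to differ (-1.18 ± 0.26, adjusted p = 0.0594).

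Of 19 other cystatins and stefins, 4 were tested (*Cstb*, *Cst7*, *Ahsg* and *Kng1*), and *Cstb*, an inhibitor of cysteine cathepsins inside the cell, had the most counts of them. It was at 1251 and 1202 CPM with normal Veh, 1322 and 1391 with normal CC, 810 and 807 with steatotic Veh, and 1271 and 1196 CPM with steatotic CC. As with *Ctsz*, the steatotic Veh libraries stood below all others. *Cstb* rose with CC by 0.18 ± 0.04 on the log2 scale under the label normal (adjusted p = 0.0357) and by 0.63 ± 0.04 under the label steatotic (adjusted p = 5.26e-05), and the responses differed by 0.44 ± 0.06 (adjusted p = 0.0107). It was lower by 0.55 with the label steatotic under Veh (log2 difference -0.55, adjusted p = 6.68e-05) and was not called under CC (-0.11 ± 0.04, adjusted p = 0.1001). The call with the label normal was lost with the replicate block (adjusted p = 0.0543), with library size only (0.0705) and without any 1 of 6 libraries, which are all but the steatotic CC ones (0.0585 to 0.184). Under both labels *Cstb* had log2 fold changes above 0 with CC and the secreted inhibitor *Cst3* below 0.

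Of the 9 genes of cathepsin processing and sorting, 0 were called higher and 1 lower with CC under the label normal, and 1 higher and 5 lower under the label steatotic, where 12% and 10.9% of all tested genes were called, or 31.7% and 30.5% of those of high level. *Lgmn*, the gene of legumain, which cuts cathepsin proenzymes and chains, fell from 2984 and 2886 to 2178 and 2183 CPM with the label normal (log2 fold change -0.39 ± 0.03, adjusted p = 0.000165) and from 4215 and 4253 to 2508 and 2492 CPM with the label steatotic (-0.74 ± 0.03). These responses differed by -0.35 ± 0.04 (adjusted p = 0.00552). *Psap*, the gene of prosaposin, the precursor of the saposins that aid lipid breakdown, rose from 10220 and 10880 to 13860 and 13730 CPM with the label steatotic (0.40 ± 0.03, adjusted p = 0.000147). With the label normal it was at 14470 and 14590 CPM with Veh and 15350 and 14870 with CC (0.09 ± 0.03, adjusted p = 0.145), and the responses differed by 0.31 ± 0.05 (adjusted p = 0.0174). That call was lost without normal Veh replicate 1 (adjusted p = 0.0544) or 2 (0.0687), normal CC replicate 2 (0.0755) or steatotic CC replicate 1 (0.0506). The other genes called lower with the label steatotic were *Sort1* (-0.63 ± 0.16, adjusted p = 0.0256), *Sorl1* (-0.51 ± 0.11, 0.0118), *Gnptg* (-0.37 ± 0.10, 0.0335) and *Nagpa* (-0.27 ± 0.06, 0.0207). None of these was called with the label normal. The mannose 6-phosphate receptors *M6pr* and *Igf2r* were not called with CC under either label.

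The partners of cathepsin A in its complex moved apart with CC. *Glb1*, which encodes β-galactosidase, was lower by 0.28 ± 0.04 with the label normal and by 0.37 ± 0.04 with the label steatotic (log2 fold changes -0.277 and -0.374, adjusted p = 0.00467 and 0.000494). *Neu1*, which encodes neuraminidase 1, was higher by 0.20 ± 0.05 and 0.17 ± 0.05 (adjusted p = 0.0392 and 0.0441). Both calls for *Neu1* were lost with the replicate block (adjusted p = 0.0606 and 0.0632) and with library size only (0.0733 and 0.0624), that with the label steatotic also in DESeq2 (0.0885), and both without most single libraries (up to 0.162 and 0.222). Of the 4 genes of MiT/TFE factors, 0 were called with CC under the label normal and 1 under the label steatotic, *Mitf*, which was higher by 0.16 ± 0.04 (adjusted p = 0.0391). This call was lost in DESeq2 (adjusted p = 0.0934), with the replicate block (0.0614) and without any 1 of the steatotic or normal CC libraries (0.0594 to 0.213). *Tfeb* was lower with the label steatotic, by 26.2% with Veh (log2 difference -0.44 ± 0.07, adjusted p = 0.00179).

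**Figure D4:**
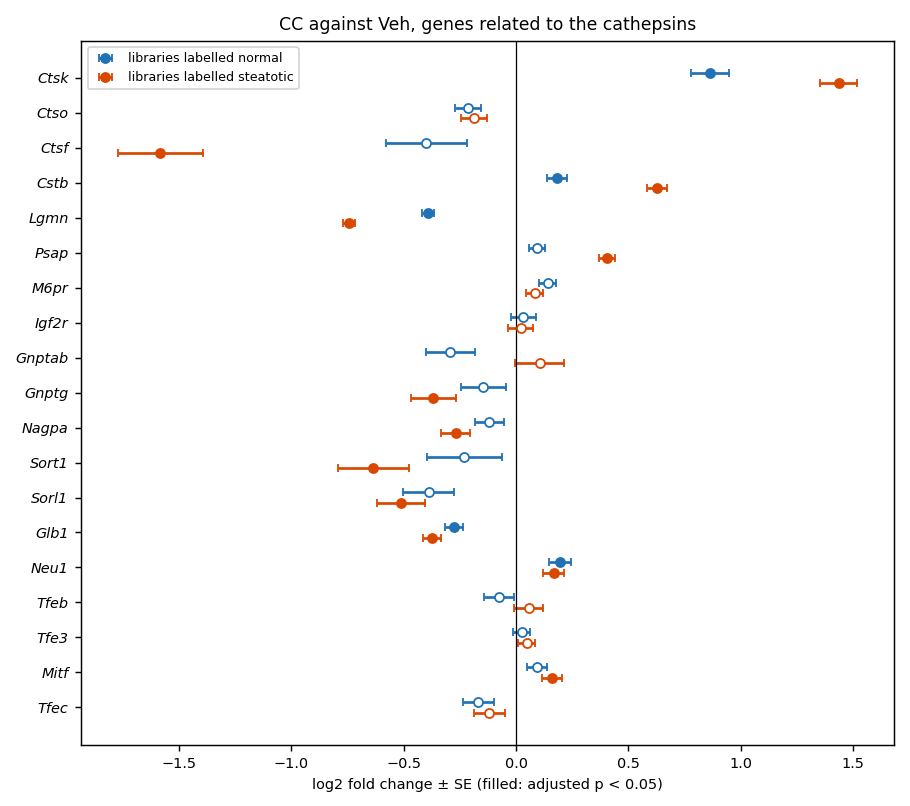
Log2 fold change with its standard error for CC against Veh under each label, for 19 genes related to the cathepsins, with filled points for an adjusted p-value below 0.05. *Ctsk*, *Cstb* and *Neu1* lie to the right of 0 and *Lgmn* and *Glb1* to the left under both labels, with all of these points filled.

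For the 3 members whose group means had the widest range, the 3 genes with the most similar pattern were found among 9021 tested genes by Pearson's correlation of log2 CPM over the 8 libraries, which share 4 group means. For *Ctse* they were *B4galnt1* (r = 0.997), *Cd93* (0.995) and *Rap1b* (0.994), each higher in all libraries labelled steatotic than in any labelled normal. *Cd93*, for example, was at 67.2 CPM in both normal Veh libraries, 72.5 and 70.5 with normal CC, 198 and 205 with steatotic Veh, and 159 and 153 CPM with steatotic CC. For *Ctsc* they were *Rassf2* (r = 0.998), *Rnpep* (0.995) and *Csk* (0.995). *Rassf2* fell from 195 and 207 to 115 and 117 CPM with the label normal and from 302 and 304 to 148 and 164 CPM with the label steatotic. For *Ctsl* they were *Sel1l3* (r = 0.998), *Slc36a1* (0.997) and *AC147806.2* (0.997). These correlations describe likeness over few libraries and carry no test.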

How the data were processed

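Poly(A) RNA-seq of hepatic macrophages was measured in 8 libraries. Per the labels, the authors' processing used fastp for the reads, HISAT2 for alignment on mm10 and StringTie for quantification. Their versions are not given in the sources used here. The deposited table holds 1 column of estimated counts (expected counts, whole numbers as deposited) per library and is not normalized. Small values were too often multiples of 4 (35.0% to 36.5% of values from 1 to 20, against 23.9% to 27.0% of those from 100 to 1000), from which 1 fragment was inferred to equal about 4 counts.

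A gene was tested if it reached 0.5 CPM in 1 or more libraries, with edgeR 4.0.16 in R 4.3.3 (glmQLFit with robust estimation, glmQLFTest, TMM factors of 0.981 to 1.03) in 1 model of 4 group means, with Benjamini-Hochberg adjustment over all 15202 genes and a threshold of 0.05. The SE is the log2 fold change divided by the square root of the F statistic. The common biological coefficient of variation was 0.171. CPM printed as levels used total counts. TMM-scaled sizes shifted them by -2.52% to 1.98% and changed the order of the groups for 3 of the 10 members (*Ctsd*, *Ctsh* and *Ctsz*). Steps were checked on simulated data with known changes.

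Genes named were the 10 members, *Mc4r*, genes of the related lists past the threshold or most abundant in their list (at most 4 a list), and the 3 most alike genes for the 3 members of widest range. Overlapping genes, *Dcn*, *S100a8*, *Pecam1*, *Kdr*, *Oit3*, *Stab2*, *Vsig4*, the other macrophage markers and the background among genes of at least 300 CPM were added after values were seen. So were *Sort1*, *Sorl1*, *Gnptg*, *Nagpa*, *Lyve1* and the other Kupffer cell markers. The members and lists were chosen with earlier results of these data known. Gene positions came from GENCODE M21 and promoters from RefSeq, which matched 7 members. *Ctsb*, *Ctse* and *Ctsh* had no entry. Alternatives were DESeq2 1.42.0, edgeR with the size factors of DESeq2 or with library size alone, other filters, a prior count of 4, counts divided by 4, the 4 libraries compared alone, the replicate number as a block, each library left out, and other gene lengths. Figures were drawn with matplotlib 3.10.9.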

Additional observations from a re-analysis of the deposited data

Results flagged for a closer look

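The CC response differed between the labels, by the test of the difference itself in edgeR, for 9 of the 78 members, related genes and markers tested, leaving aside *Ctse*. Of the 78, 6.41% were called higher and 5.13% lower, beside 1.95% and 1.27% of all tested genes and 9.87% and 6.52% of those with a mean of at least 300 CPM. The difference was 0.35 on the log2 scale for *Ctsz* (0.34964, adjusted p = 0.00552), 0.44 for *Cstb* (0.44389, adjusted p = 0.0107), 0.31 for *Psap* (0.31081, adjusted p = 0.0174, above 0.05 without any 1 of 4 libraries, 0.0506 to 0.0755) and 0.57 for *Ctsk* (0.5733, adjusted p = 0.0457, above 0.05 without any 1 library), each more positive under the label steatotic. It was -0.35 for *Lgmn* (-0.3511, adjusted p = 0.00552), and -0.30 for the macrophage marker *Adgre1* (-0.30212, adjusted p = 0.0205, above 0.05 without any 1 of 5 libraries, 0.0664 to 0.0790), which both fell more under the label steatotic. For *S100a8* it was 1.31 (1.3074, adjusted p = 0.0101), for the endothelial marker *Pecam1* -1.20 (-1.1953, adjusted p = 0.00368) and for the Kupffer cell marker *Vsig4* -0.50 (-0.49555, adjusted p = 0.0367, above 0.05 without any 1 of 6 libraries, 0.0666 to 0.121, and with the replicate block, 0.0626). For *Ctse* the test gave -2.25 (-2.2493, adjusted p = 0.0221), but it needs a fold change from 4 to 14 counts in each library labelled normal, at the floor, and the call was lost with counts divided by 4 (adjusted p = 0.107) and without any 1 of 3 libraries (0.0639 to 0.0976), so it does not show that the response of *Ctse* differed. *Ctsz*, *Cstb* and *Psap* had their lowest levels in the steatotic Veh libraries, and their levels with CC were closer between the labels than their levels with Veh.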

How the results depend on the processing

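Of 840 values of log2 fold changes of the members under alternatives, 792 kept their direction and their side of the threshold, 32 lost the call, 3 gained it and 13 changed sign. The 13 were all differences between CC responses, which were near 0 for *Ctsl* and *Cst3* and -0.13 ± 0.12 for *Ctsc*. For *Ctsl*, 0.0016 became -0.004565 with DESeq2 size factors, -0.004552 with DESeq2, -0.0005097 with at least 1 CPM in 2 libraries and -0.0004428 with counts divided by 4. Leaving out 1 library gave -0.06655 to 0.07303 for *Ctsl*, -0.2793 to 0.000882 for *Ctsc* and -0.03097 to 0.05296 for *Cst3*. The directions of the other comparisons were the same under all alternatives run. When 1 library was left out, 0 to 1 members were called higher and 4 to 5 lower with CC under the label normal, and 1 to 2 higher and 4 to 7 lower under the label steatotic. Between the labels, 5 to 6 were higher and 4 lower with Veh, and 5 to 6 higher and 3 to 4 lower with CC. For the difference between the CC responses 1 to 2 were higher and 0 to 2 lower, and with counts divided by 4 the number lower was 0. All these counts include *Ctse*, which passed the filter only through the libraries labelled steatotic and so had to differ between the labels. The fits without a library have fewer libraries, and the cause was otherwise not tested.

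With the replicate number as a block, 1 member was called higher and 5 lower with CC under the label normal, and 2 higher and 7 lower under the label steatotic, and no count of members changed. Among 587 values for the related genes and markers, 519 kept their direction and side of the threshold, 67 lost the call, 1 gained it and 0 changed sign, and the block ended the calls of *Cstb* and *Neu1* with the label normal (adjusted p = 0.0543 and 0.0606) and of *Neu1* and *Mitf* with the label steatotic (0.0632 and 0.0614), and that of the difference for *Vsig4* (0.0626). *Cstb* was called lower with the label steatotic under CC with library size only (-0.14, adjusted p = 0.0483). Libraries with the same number deviated together little, if at all (correlations of -0.0041 to 0.0603 between pairs of groups over all tested genes). These correlations include counting noise and cannot exclude that the numbers pair the libraries. With 2 libraries a group, the precision rests on the spread shared over the 4 groups, and *Ctse* with the label normal is limited by depth.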
